A study of Mus musculus with 5 samples.

Results

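H2A ubiquitinated at lysine 119 (H2AK119Ub) was compared between 4 chromatin immunoprecipitation and sequencing (ChIP-seq) libraries, and the regions described here carried a peak in 3 of them and none in the library of HOXA9-transduced cells. They were chosen by merging the peaks of all 4 deposited lists wherever these overlapped or touched, and by keeping the merged regions with a non-transduced (NT), a PML-RARa and an MLL-AF9 peak but no HOXA9 peak. This gave 280 member regions of 2575 merged regions in all. The peak lists themselves chose the regions, so the missing HOXA9 peak is a description and supports nothing.

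All libraries came from lineage-negative bone marrow progenitors of C57BL/6 mice with the genotype R26CreERT2;Ring1a-/-;Ring1bf/f;Cdkn2a-/-, which the controls share. The cells lacked Ring1a and the Cdkn2a locus, which encodes the tumour suppressors p16INK4A and p19ARF. They carried floxed Ring1b with a ligand-dependent Cre at Rosa26, and the labels give no ligand treatment and no age of the mice. The cells were infected in culture, per the labels' protocols; one group was left without transduction and the others received the homeobox gene HOXA9, the PML-RARa fusion of acute promyelocytic leukaemia or the MLL-AF9 fusion of acute myeloid leukaemia. Each group had 1 library, and the labels describe no empty-vector library, so oncogene, transduction and library cannot be told apart. The labelled cell type was not checked against marker genes, because an mm9 gene annotation was not used here.

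Polycomb repressive complex 1 (PRC1) places the mark through its ubiquitin ligases RING1A and RING1B, and the mark typically covers broad domains around silent developmental genes. In blood progenitors PRC1 is known for keeping lineage and cell cycle inhibitor genes repressed, and HOXA9 is a homeobox factor that sustains progenitor self-renewal.

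The HOXA9 list was the shortest of the series, with 620 peaks over 13.4 Mb against 1332 to 1772 peaks over 27.0 to 35.7 Mb in the other lists. The read depth of every library is unknown. Lower depth, lower immunoprecipitation yield and less mark cannot be told apart in these lists. A missing peak therefore means that no HOXA9 peak was listed at that place, not that the mark was absent. The deposited peak score is the authors' value, on a scale that is not stated, and the lowest listed score was 700 in HOXA9, NT and PML-RARa and 703 in MLL-AF9. Scores are used below only to place a peak within its own list, as the percent of that list's peaks with the same or a lower score (score percentile); where a library had several peaks in a region, the highest score counts.

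The member regions outnumbered every other class with a single missing library. In the same merged regions, 72 lacked only the NT library, 46 only MLL-AF9 and 28 only PML-RARa. Among the 589 regions common to NT, PML-RARa and MLL-AF9, the background share without a HOXA9 peak was 47.5% (exact binomial 95% interval 43.4 to 51.7), and it was 68.8% of all 1275 NT regions. These shares are fixed by the choice of the regions. When the same number of peaks, the best 620, was taken from every list, regions missing only from HOXA9 numbered 45, compared with 70 for NT, 46 for PML-RARa and 41 for MLL-AF9. At that length 27.6% of the regions common to the other lists had no HOXA9 peak (interval 20.9 to 35.1), compared with 37.2% for NT (30.3 to 44.6), 28.0% for PML-RARa (21.3 to 35.6) and 25.8% for MLL-AF9 (19.2 to 33.3). At this length NT, not HOXA9, had the highest share, though their intervals overlap. The lowest score kept was 940 in NT, 1111 in PML-RARa and 1008 in MLL-AF9. It was 700 in HOXA9, whose whole list this is. When each list kept the same share of its peaks, HOXA9 remained the library most often missing. In the upper 75% of each list by score, 206 regions lacked only HOXA9, compared with 73 for NT, 46 for MLL-AF9 and 21 for PML-RARa. In the upper 50% the counts were 123, 52, 27 and 22 in the same order, with HOXA9 the shortest list at 310 peaks. Of the 280 member regions, 45 held a peak of all of NT, PML-RARa and MLL-AF9 among the best 620 of each list, 93 held peaks of 2 of these lists, 93 of 1 and 49 of none.

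**Figure D1:**
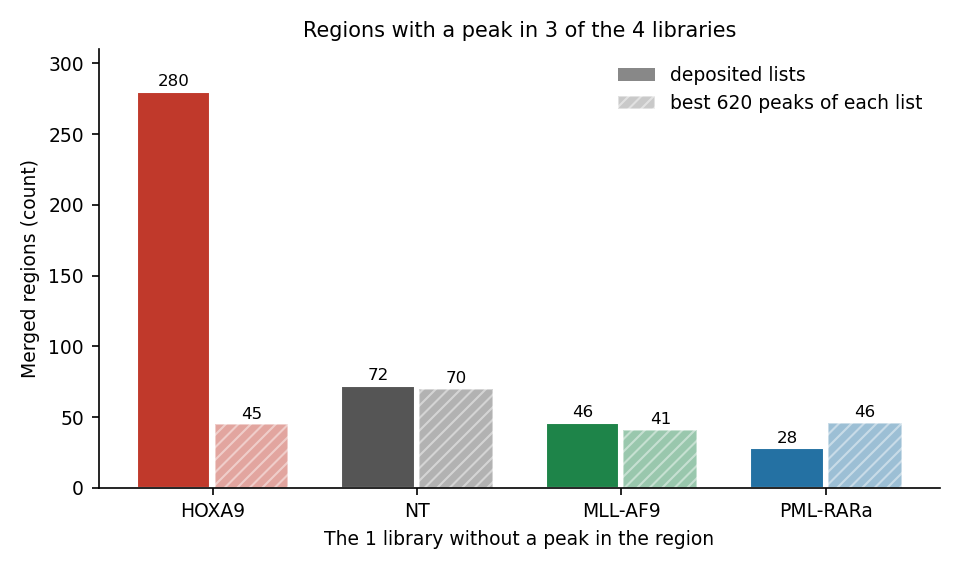
Bars count the merged regions with a peak in 3 of the 4 libraries, by the library without a peak; full bars use the deposited lists and pale hatched bars the best 620 peaks of each list. The HOXA9 bar drops from 280 to 45, while the NT bar stays at 72 and 70.

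The member regions were broad H2AK119Ub domains. Their length ran from 1.66 to 133 kb with a median of 25.8 kb (exact order-statistic 95% interval 23.8 to 28.7, n = 280). NT peaks covered a median of 20.1 kb per region (17.7 to 21.8), PML-RARa peaks 20.0 kb (17.6 to 22.0) and MLL-AF9 peaks 16.9 kb (15.4 to 19.7). In all, the member regions held 7.46 Mb of NT peaks, 7.16 Mb of PML-RARa peaks and 6.30 Mb of MLL-AF9 peaks. That was 23.7% of the covered length of the NT list, 20.1% of the PML-RARa list and 23.4% of the MLL-AF9 list. Of the member regions, 57 were longer than 50 kb, 4 were longer than 100 kb and 1 was shorter than 5 kb. Single peaks over 50 kb lay in 47 of them and single peaks under 5 kb in 16. Of the 309 regions of all 4 libraries, 79 were longer than 50 kb, 12 longer than 100 kb and 0 shorter than 5 kb. There the HOXA9 peaks count toward the length of the region. Single NT, PML-RARa or MLL-AF9 peaks over 50 kb lay in 67 of those 309 and ones under 5 kb in 12.

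In the 309 regions that did have a HOXA9 peak beside the other libraries, the median covered length was larger in each library. The medians there were 24.1 kb for NT (22.5 to 27.3), 23.7 kb for PML-RARa (22.2 to 26.8) and 21.0 kb for MLL-AF9 (18.6 to 22.9). The middle ranges overlapped widely, since NT cover ran from 11.8 to 32.3 kb between the quartiles of the member regions and from 14.9 to 40.1 kb in the regions with HOXA9. Longer cover leaves more room for a HOXA9 peak to overlap, and a HOXA9 peak can join separate peaks of another library into a single region. Neither was corrected for, so part of the difference can come from how the regions were formed. These intervals treat regions as independent and cover counting error only.

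**Figure D2:**
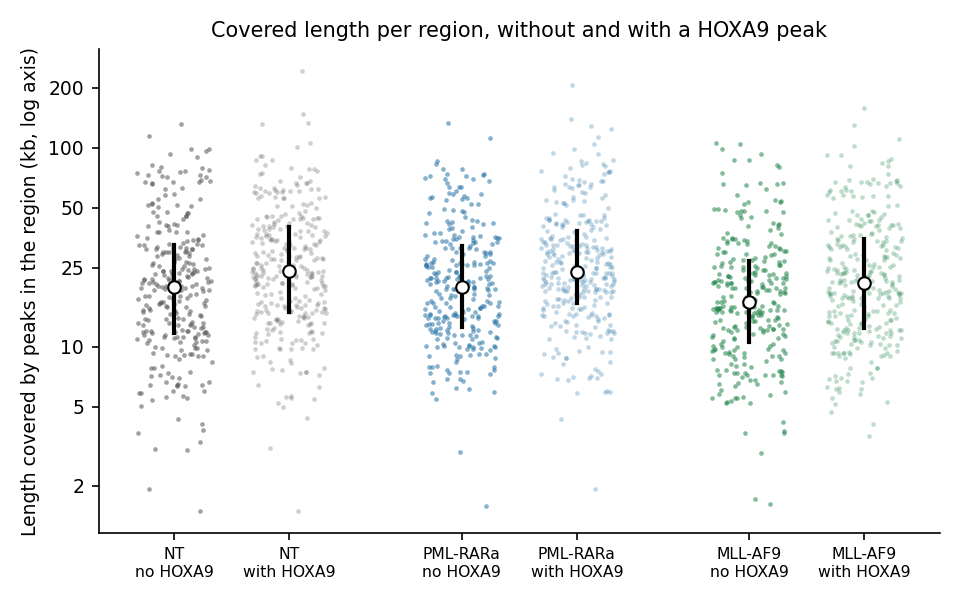
Points are regions, with the length covered by the peaks of NT, PML-RARa or MLL-AF9 on a log axis in kb, for the 280 regions without and the 309 with a HOXA9 peak; circles are medians and bars the quartiles. Medians lie at 20.1, 20.0 and 16.9 kb without a HOXA9 peak and at 24.1, 23.7 and 21.0 kb with one.

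The 3 libraries shared a common stretch in all but 1 of the member regions. Exactly 1 peak of each library formed 244 of the 280 regions (87.1%, interval 82.6 to 90.8). Of the 309 regions with a HOXA9 peak, 252 held exactly 1 peak of each of these 3 libraries (81.6%, interval 76.8 to 85.7). The stretch covered in all of NT, PML-RARa and MLL-AF9, called the core here, had a median of 12.1 kb (11.5 to 13.8), or 52.8% of the region. It made up 50% or more of the region in 155 of 280 regions, compared with 198 of the 309 regions with a HOXA9 peak. The left ends of the 3 libraries lay a median of 4.39 kb apart (3.70 to 5.10) and the right ends 4.89 kb (3.70 to 5.61). In 12 regions both ends lay within 1 kb in all 3 libraries, and in 87 regions within 5 kb. The counts were 11 and 93 among the 309 regions with a HOXA9 peak, a like share. In 1 member region the libraries shared no base. It lay on chromosome 18 at 35981059 to 36058969 and was joined by a PML-RARa peak of 77.9 kb that spanned an NT peak of 14.3 kb and an MLL-AF9 peak of 26.7 kb; it is among the regions with the highest PML-RARa to NT ratio.

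The peaks of the member regions stood at middle ranks of their lists. The median score percentile was 58.9 in NT (55.2 to 66.8), 58.2 in PML-RARa (56.3 to 64.4) and 52.7 in MLL-AF9 (49.4 to 59.4). In the regions with a HOXA9 peak it was 71.0 in NT (66.0 to 77.3), 78.6 in PML-RARa (75.1 to 81.5) and 75.9 in MLL-AF9 (75.5 to 81.0). The top 25% of the NT list by score was reached by 96 member regions (34.3%), that of PML-RARa by 90 (32.1%) and that of MLL-AF9 by 80 (28.6%). Of the regions with a HOXA9 peak, 141, 175 and 173 of 309 did so. In 106 member regions no library reached its top 25%, compared with 46 of the regions with HOXA9. At the other end, 21 member regions (7.5%) were in the top 25% of all 3 lists and 2 (0.71%) in the top 10% of all 3. Of the 309 regions with a HOXA9 peak, 60 (19.4%) and 15 (4.85%) were.

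The share of common regions without a HOXA9 peak was lower where the other libraries had higher scores. The 589 regions were cut into 4 classes of equal size by each measure. By PML-RARa score the share was 66.9% in the lowest class (interval 58.7 to 74.4), then 53.7%, 44.2% and 25.2% in the highest (18.4 to 33.0). By MLL-AF9 score it went from 63.5% (55.2 to 71.3) through 59.9% and 34.0% to 32.7% (25.2 to 40.9). By NT score it moved less, from 54.1% (45.7 to 62.3) to 38.1% (30.2 to 46.5), with 49.7% and 48.3% between; whether the libraries differ in this was not tested. By length of the core it was 60.8% in the class with the shortest core (52.5 to 68.7) and 37.4% in the one with the longest (29.6 to 45.8). Longer cores leave more room for a HOXA9 peak to overlap, which was not corrected for. In the classes with the highest scores, 37 of 147 regions by PML-RARa score, 48 of 147 by MLL-AF9 score and 56 of 147 by NT score had no HOXA9 peak.

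**Figure D3:**
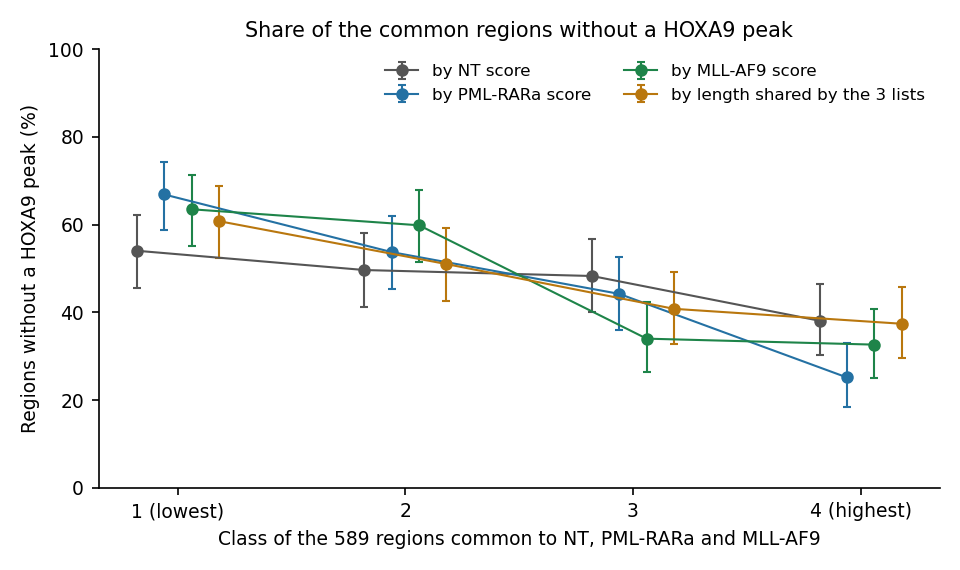
The y axis is the percent of the 589 common regions that had no HOXA9 peak, in 4 classes of equal size by the NT, PML-RARa or MLL-AF9 score or by the length shared by these lists; bars are exact binomial 95% intervals. All 4 lines fall from left to right, by PML-RARa score from 66.9% to 25.2%.

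The member region with the best mean score percentile lay on chromosome 11 at 4634061 to 4674524. Its NT peak of 40.5 kb had a score of 1427, its PML-RARa peak of 36.4 kb a score of 1825 and its MLL-AF9 peak of 32.0 kb a score of 1825. These are percentiles 94.7, 97.9 and 99.1, so it was one of the member regions in the top 10% of every list, and the nearest listed HOXA9 peak was 162 kb away. The other such region lay on chromosome 3 at 87771584 to 87822051, with scores of 1443 in NT, 1843 in PML-RARa and 1529 in MLL-AF9. It was covered over 47.6 kb in NT and 41.6 kb in PML-RARa, and 2 MLL-AF9 peaks covered 33.2 kb. It was also the member region nearest to a HOXA9 peak, at 1018 bp.

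A compact region on chromosome 8 at 14087966 to 14102520 came next. Its NT, PML-RARa and MLL-AF9 peaks of 11.8, 14.3 and 13.5 kb were at percentiles 89.6, 94.5 and 97.1, and the nearest HOXA9 peak was 1681 kb away. No HOXA9 peak number was missing between the HOXA9 peaks on both sides, a count explained below. At the regions above on chromosomes 11 and 3, and at the next one on chromosome 5, 1 number was missing each. At the following regions on chromosome 15 it was 3 and 1. The next region lay on chromosome 5 at 121095916 to 121173687. Its NT peak of 77.8 kb was more than 2 times as long as the PML-RARa peak of 35.6 kb and the MLL-AF9 peak of 31.1 kb. The MLL-AF9 score of 1862 was at percentile 99.5. A region on chromosome 15 at 75522766 to 75592456 had an NT score of 1689 (percentile 99.2) and covers of 51.1, 69.7 and 62.2 kb in NT, PML-RARa and MLL-AF9. Also on chromosome 15, the region at 99402692 to 99446069 had covers of 36.6, 43.4 and 23.1 kb in the same order, with a HOXA9 peak 49.1 kb away.

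**Figure D4:**
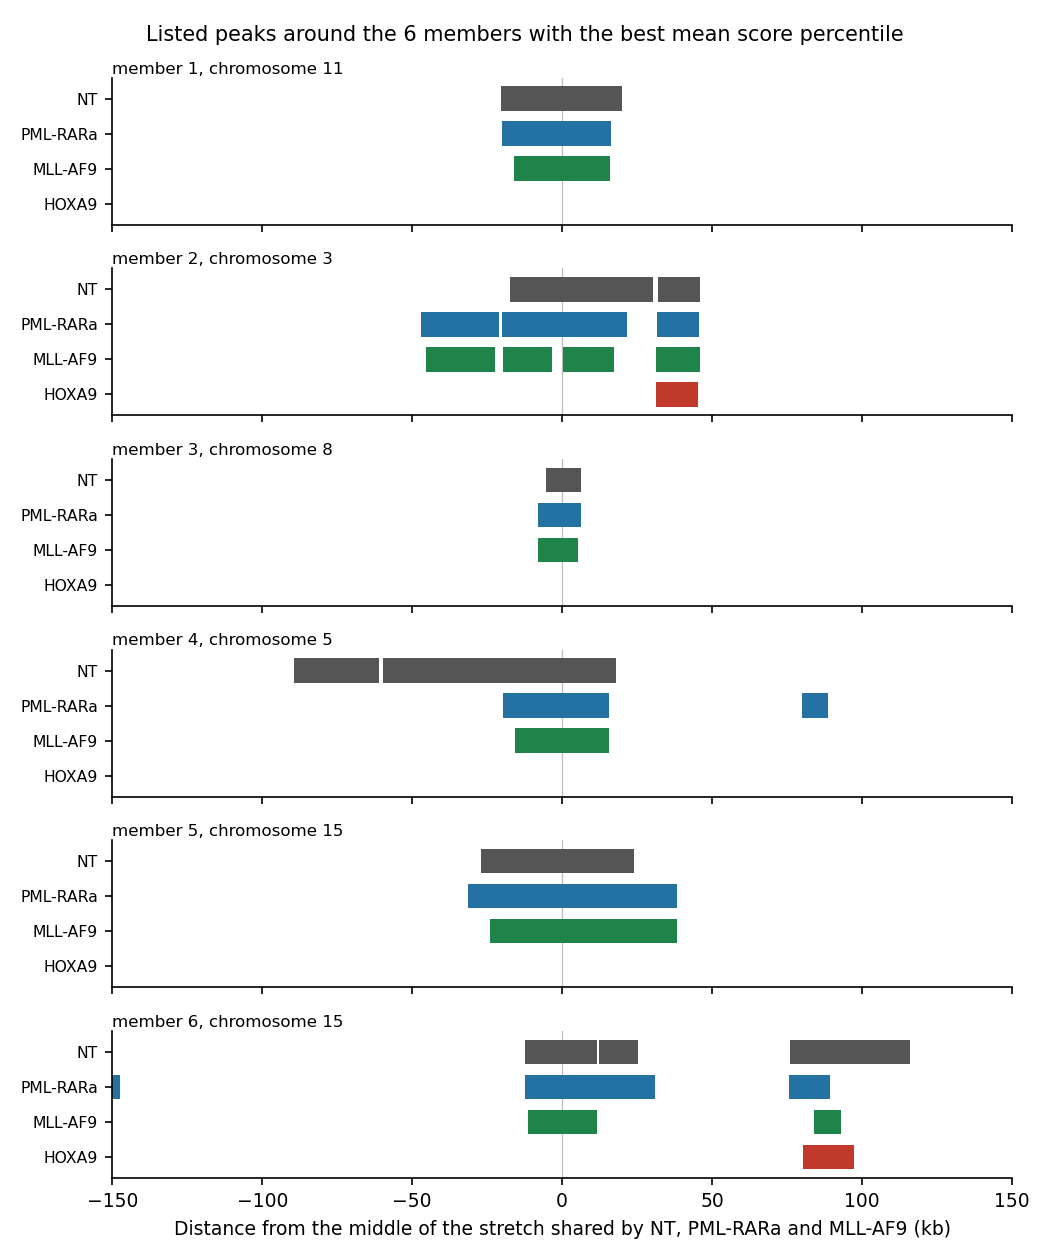
Bars are listed peaks of the 4 libraries around the 6 member regions with the best mean score percentile, by distance in kb from the middle of the stretch shared by NT, PML-RARa and MLL-AF9. HOXA9 peaks appear in 2 of the 6 windows, beside member 2 on chromosome 3 at 1018 bp and beside member 6 on chromosome 15 at 49.1 kb, and none lies on a member region.

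The highest scores of single libraries were partly found in other member regions. The highest NT score among them, 1901, was on chromosome 2 at 27519154 to 27562859, where the MLL-AF9 score of 1773 was at percentile 98.9 and the PML-RARa score of 1180 at percentile 73.0. The highest PML-RARa score, 2070, was on chromosome 11 at 118810235 to 118940645. That region of 130.4 kb held the most peaks, 2 of NT, 4 of PML-RARa and 2 of MLL-AF9, and its cover was 36.2 kb in NT, but 111 and 106 kb in the PML-RARa and MLL-AF9 libraries. Its NT score of 763 was at percentile 10.1. The highest MLL-AF9 score, 2102, was on chromosome 8 at 124127721 to 124203581, where the NT peak of 75.9 kb had a score of 799 (percentile 21.5). In the last 2 of these regions a high rank in a fusion library stood beside a low rank in NT.

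The widest member region was on chromosome 11 at 61409933 to 61543099, where NT, PML-RARa and MLL-AF9 covered 131, 133 and 104 kb. Its core was 104 kb long, and the region ended 2.84 kb from the nearest HOXA9 peak. Next in width, after the region with the most peaks, came chromosome 11 at 115636866 to 115760129, where NT cover was 115 kb, PML-RARa cover 68.3 kb and MLL-AF9 cover 48.1 kb. On chromosome 7 at 150597348 to 150697402 the MLL-AF9 cover of 93.2 kb exceeded that of NT (67.7 kb) and PML-RARa (57.4 kb). On chromosome 11 at 118346116 to 118445797 the NT and MLL-AF9 covers were 98.7 and 98.4 kb and the PML-RARa cover 26.2 kb.

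Within the member regions, PML-RARa cover was close to NT cover and MLL-AF9 cover was shorter. The comparison uses no HOXA9 value. The median ratio of PML-RARa to NT cover was 1.04 (1.01 to 1.08, n = 280), and PML-RARa was the longer of the pair in 163 regions. The median ratio of MLL-AF9 to NT cover was 0.944 (0.876 to 0.984), and MLL-AF9 was the shorter in 168 regions. Over all regions with both libraries the medians were 1.03 (1.02 to 1.05, n = 811) and 0.945 (0.909 to 0.973, n = 729). The member regions stood at that level, though these sets include them. In the 309 regions with a HOXA9 peak the medians were 1.02 (0.988 to 1.05) and 0.936 (0.876 to 0.976). PML-RARa had the longest cover in 131 member regions, NT in 97 and MLL-AF9 in 52, and MLL-AF9 had the shortest in 118.

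Large differences in width ran in both directions. PML-RARa cover was at least 1.5 times NT cover in 60 member regions (21.4%), against a background of 20.1% over all regions with both, and the reverse held in 51 (18.2%) against 14.9%. MLL-AF9 cover was at least 1.5 times NT cover in 38 (13.6%) against 11.7%, and NT cover at least 1.5 times MLL-AF9 cover in 68 (24.3%) against 22.8%. Both fusion libraries were wider than NT by this factor in 26 member regions (9.29%) against 7.47% of the 589 common regions, and NT was wider than both in 32 (11.4%) against 8.83%. All 3 covers lay within 1.5 times of each other in 107 (38.2%, interval 32.5 to 44.2) against 43.5%. Each background lay within the interval of the member share. The backgrounds include the member regions, however, which draws them toward the member shares. Shares without the member regions were not computed, but they lie farther from the member shares than these backgrounds do. An interval that holds a background therefore does not show that the shares are alike. For covers within 1.5 times of each other, the counts were 256 of all 589 common regions and 107 of the 280 member regions. Whether member regions differ from the others was not tested. There was 1 library per group, so no difference between groups was tested.

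**Figure D5:**
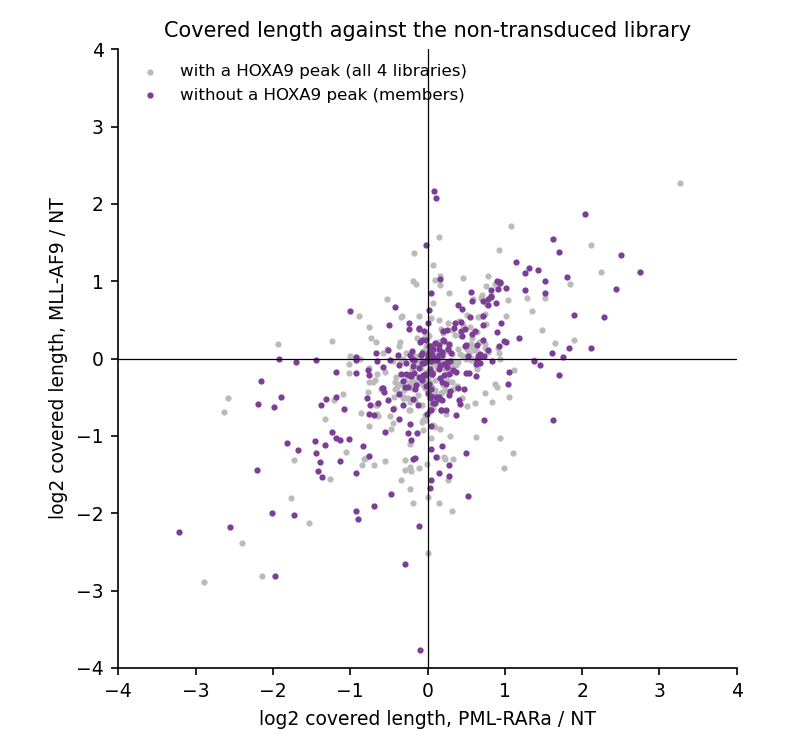
Each point is a region, with the log2 ratio of covered length of PML-RARa to NT on the x axis and of MLL-AF9 to NT on the y axis; purple points are the 280 regions without and grey points the 309 with a HOXA9 peak. Both sets centre near 0, with median ratios of 1.04 and 0.944 for the purple points, and overlap across the plot.

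Several member regions were much shorter in both fusion libraries than in NT. On chromosome 2 at 157999213 to 158070201, an NT peak of 71.0 kb faced a PML-RARa peak of 7.65 kb and an MLL-AF9 peak of 15.0 kb. On chromosome 6 at 94590112 to 94656020 the covers were 65.6, 11.1 and 14.5 kb in the same order. On chromosome 11 at 101767209 to 101833458 they were 62.0, 13.5 and 22.8 kb. On chromosome 2 at 163014486 to 163096003 they were 81.5, 20.7 and 11.6 kb. In each of these 4 regions NT was the library with long cover.

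Other member regions kept the long cover in PML-RARa and NT and a short peak in MLL-AF9. On chromosome 11 at 120153280 to 120176920 NT cover was 23.6 kb, PML-RARa cover 22.1 kb and MLL-AF9 cover 1.73 kb, the lowest MLL-AF9 to NT ratio of the set (0.0730). On chromosome 16 at 4408529 to 4450462 the covers were 40.9, 33.3 and 6.49 kb. The scores were low in the first of these regions (733 in NT, 872 in PML-RARa and 727 in MLL-AF9) and higher in the second (1100, 1389 and 1315).

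Cover was longest in a fusion library elsewhere. On chromosome 12 at 114320373 to 114340811 PML-RARa cover was 20.4 kb, NT cover 3.03 kb and MLL-AF9 cover 6.60 kb, a PML-RARa to NT ratio of 6.74. On chromosome 19 at 55813801 to 55875252 PML-RARa cover was 60.4 kb, NT cover 10.7 kb and MLL-AF9 cover 26.9 kb. MLL-AF9 alone was wide on chromosome 7 at 53102865 to 53128108, with 25.2 kb against 5.61 kb in NT and 5.95 kb in PML-RARa, and on chromosome 2 at 31095525 to 31143309, with 46.0 kb against 10.9 and 11.8 kb. On chromosome 14 at 122190394 to 122201940 both fusion libraries were wider, with PML-RARa at 7.91 kb, MLL-AF9 at 7.08 kb and NT at 1.93 kb.

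The median distance from a member region to the nearest listed HOXA9 peak was 424 kb (345 to 466), and 205 of 280 (73.2%) had a HOXA9 peak within 1000 kb, 40 within 50 kb and 10 within 10 kb. For the other 1696 regions without a HOXA9 peak the median was 478 kb (434 to 531), with 68.1% within 1000 kb. With the best 620 peaks of each list the median of the regions missing only from HOXA9 was 236 kb (132 to 446). The distances ranged from 1018 bp to 28796 kb. The most distant were 3 regions of chromosome 18, spanning 6999374 to 7009420, 11044180 to 11057848 and 15218836 to 15226415, and 2 of chromosome 1, spanning 36348200 to 36364852 and 38678662 to 38688625. These 5 regions were small, with lengths from 7.58 to 16.7 kb.

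At 3 of the 5 member regions nearest to a HOXA9 peak, that peak lay in a region of all 4 libraries. At the chromosome 3 region of the best-ranked group, the HOXA9 peak to the right spanned 87823070 to 87837189 (score 809) and was shared with NT, PML-RARa and MLL-AF9. On chromosome 12, the member region at 114394986 to 114416092 lay 1637 bp from a HOXA9 peak at 114383684 to 114393348, and on chromosome 2 the region at 25156441 to 25178468 lay 2137 bp from one at 25141368 to 25154303; both HOXA9 peaks were in regions of all 4 libraries. On chromosome 18, the member region at 65730245 to 65797048 lay 1164 bp from a HOXA9 peak of 77.7 kb that was shared with PML-RARa only. On chromosome 11, the region at 103619597 to 103678926 lay 1660 bp from a HOXA9 peak of 31.2 kb that was shared with NT and MLL-AF9. These 5 regions stand just inside the border of the rule. Outside it, the regions where HOXA9 peaks covered the fewest bases of the other libraries' peaks held short HOXA9 peaks. The overlap was 1962 bases on chromosome 16 at 34568722 to 34577071 and 3403 bases on chromosome 5 at 135723208 to 135730780. It was 3517 bases on chromosome 8 at 108856110 to 108862570. Each HOXA9 peak lay wholly on peaks of the other libraries, with score percentiles of 88.9, 31.0 and 56.5 in the same order. The lowest HOXA9 score in a region of all 4 libraries was 703, found at 57023234 to 57043019 of chromosome 1, 20520992 to 20540668 of chromosome 9 and 71444049 to 71453055 of chromosome 12.

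Peak names carry running numbers with gaps, and the HOXA9 names ran to 928 with 308 numbers missing. The reason for the gaps is not stated. The numbers rose along the listed order in all 619 pairs of neighbouring HOXA9 peaks, but that the missing numbers belong to calls left out in the same order was assumed and not tested. Under this reading, no numbered call was left out where the HOXA9 peaks on both sides of a region have consecutive numbers. Consecutive numbers were found at 77 of the 280 member regions (27.5%, interval 22.4 to 33.1), against a background of 37.1% of all 1976 regions without a HOXA9 peak and 38.7% of the other 1696 (36.4 to 41.1). At the remaining 203 at least 1 number was missing between the neighbouring HOXA9 peaks. Neighbours were taken in number order. Beyond the first or last HOXA9 peak of a chromosome, a neighbour can therefore lie on another chromosome. The corresponding values were 27.8% for the 72 regions missing only from NT (17.9 to 39.6), 32.1% for the 28 missing only from PML-RARa and 26.1% for the 46 missing only from MLL-AF9. The member regions fell into 188 intervals between HOXA9 peaks taken in number order, which held 210 missing numbers. If every missing number were a call left out in genome order, and each reached no more than 1 region, at most 164 member regions could hold one and 116 (41.4%) could not; neither condition was tested.

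Member regions were found on all 19 autosomes and not on chromosome X, where no region was common to NT, PML-RARa and MLL-AF9. Chromosome 11 held 33, chromosome 4 held 26, chromosome 5 held 25 and chromosome 2 held 24. As a share of the common regions they ranged from 20% on chromosome 3 (3 of 15, interval 4.33 to 48.1) to 65% on chromosome 13 (13 of 20, interval 40.8 to 84.6). The intervals of all 19 chromosomes held the overall share of 47.5%. Chromosome 3 also had the highest ratio of HOXA9 to NT peaks among the autosomes, 31 to 35.

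The member regions were 280 of the 2575 merged regions, so most neighbours of any region were of another kind. Of the 280, 225 had another kind of merged region or a chromosome end on both sides, and 55 stood in runs of 2 or 3. Whether this differs from a random order was not tested. The 3 runs of 3 were on chromosomes 5, 8 and 11. On chromosome 11 the run covered 96024303 to 96071260, 96106629 to 96196529 and 96199600 to 96221000, with 40.6, 72.7 and 9.95 kb of NT cover, and the nearest HOXA9 peak was 154 kb from the first. On chromosome 8 it covered 124733820 to 124805437, 124806540 to 124900012 and 125185253 to 125207084, where the first pair were separated by a narrow gap and had 67.3 and 93.3 kb of NT cover. On chromosome 5 it covered 34021277 to 34085147, 34323210 to 34330635 and 34336688 to 34361887, with 62.9, 6.65 and 20.7 kb of NT cover.

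The 3 member regions whose best score percentile over the NT, PML-RARa and MLL-AF9 lists was lowest spanned 113539301 to 113616157 of chromosome 5, 120153280 to 120176920 of chromosome 11, described above for its short MLL-AF9 peak, and 77915265 to 77931249 of chromosome 12. The chromosome 5 region was in the bottom 25% of all 3 lists, with scores of 799 in NT, 808 in PML-RARa and 821 in MLL-AF9, and yet its NT peak was 76.9 kb long. MLL-AF9 covered 19.3 kb of it, and the stretch shared by the 3 libraries was 18.9 kb.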

How the data were processed

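Peaks of H2AK119Ub were called by the authors, 1 list per immunoprecipitated library. The submitters' processing notes name Bowtie, MACS2 and the build mm9. Tool versions, settings and whether the input was used as control were not given in the sources used here. Chromatin was fixed with 1% formaldehyde, per the labels' protocols. The 4 deposited lists hold position, name and the authors' peak score; other values, the start and end of each peak, are deposited in BED form and printed as 1-based positions. The input sample was not analysed here.

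Peaks were merged where they overlapped or touched. Covered lengths, the stretch shared by NT, PML-RARa and MLL-AF9, distances to HOXA9 peaks and gaps in the peak numbers were computed per region with Python 3.11.15, numpy 2.4.6, pandas 2.3.3 and scipy 1.17.1, and figures with matplotlib 3.10.9. Shares have exact (Clopper-Pearson) 95% intervals and medians exact order-statistic intervals, both for counting error only. With 1 library per group no test between groups was made. The code was tested on simulated lists.

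The member regions, and the lists and rules behind them, were chosen with earlier results of these data known. Regions were named by a rule: best mean score percentile (8), width (5), and farthest from and nearest to HOXA9 (5 each). The rule also took the highest and lowest cover ratios (3 each), highest scores (3 per list), most peaks, longest runs and weakest scores (3). Outside the border it took 3 regions by shared bases and 3 by HOXA9 score. The region without a shared base was named after its values were seen. Genes were not assigned and no sequence is printed: the gene and promoter tables at hand follow a later build than mm9. Alternatives were the 75% or 50% of peaks with the highest scores in each list, the best 620 peaks, joining within 1000 bp and a cover of at least 25% of the region; ties in score were broken by list order. Leaving out 1 of the 3 other lists was added after seeing the data.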

Additional observations from a re-analysis of the deposited data

How the results depend on the processing

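Joining within 1000 bp and requiring 25% cover left each of the 10 recomputed results within its interval (within 1.5 times for the count of 280). With the upper 75% of each list, the common regions without a HOXA9 peak made up 53.1%, the distance to HOXA9 was 491 kb and 21.4% of regions had no missing HOXA9 number. With the upper 50% the count was 123, the share 55.4%, cover 22.8 kb in NT and 22.2 kb in PML-RARa, the shared stretch 14.3 kb, the distance 514 kb and the percent without a missing number 16.3. With the best 620 peaks the count was 45, the share 27.6%, cover 23.8, 23.8 and 19.7 kb in NT, PML-RARa and MLL-AF9, the shared stretch 15.1 kb, the MLL-AF9 to NT ratio 0.867, the distance 236 kb and the percent without a missing number 20. Fewer peaks enter these settings by construction, and the best 620 are the whole HOXA9 list. Leaving out the NT list gave 483 regions (55.8%), leaving out PML-RARa 398 (53.9%) and leaving out MLL-AF9 457 (56.3%), since each then rests on a pair of lists. The median width ratios kept their side of 1 in the 5 planned settings. The interval of the PML-RARa to NT ratio held 1, however, with the upper 50% (median 1.02, interval 0.913 to 1.11). It also did with the best 620 peaks (1.07, 0.874 to 1.16). No paired analysis was possible because each group had 1 library.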

Other observations

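Cover and score of the member regions followed each other to different degrees between libraries. Spearman's rho of covered length over the 280 regions was 0.65 for NT and PML-RARa, 0.71 for NT and MLL-AF9 and 0.70 for PML-RARa and MLL-AF9. For the scores, ranked within each list, it was 0.14, 0.19 and 0.21 in the same order. In the 309 regions with a HOXA9 peak the values were 0.76, 0.74 and 0.73 for length and 0.21, 0.20 and 0.15 for score. The points share the genome and the merging, which ties the lengths together, and these values are descriptions without a test.

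The nearest other merged region lay a median of 57.3 kb away (41.7 to 74.9), and within 10 kb for 70 of the 280. It held a HOXA9 peak in 56 cases (20%), while 26.1% of all merged regions other than the members had one. These shares are not on like terms. In 26 cases the nearest region was itself a member region, which has no HOXA9 peak by the rule. The most frequent neighbours were regions of NT alone (54) and of PML-RARa alone (51), followed by regions of all 4 libraries (28).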
